A study of Rattus norvegicus with 9 samples.

Results

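Collagen genes were read out of RNA-seq profiles of primary vascular smooth muscle cells from rat aorta, the contractile cells of the artery wall. The genes were all rows of the expression table whose symbol has the form of a collagen chain (Col, a type number, a and a chain number), which gave 42 of 32623 genes. Of these, 10 encode fibrillar collagens, 9 network-forming collagens, 9 FACIT collagens, 5 beaded filament collagens and 9 collagens of other kinds. The chains Col1a2 and Col6a3 have no row under these symbols, and Col1a2 was not analysed here. The study held 9 libraries in 3 groups of 3: Control cells given DMSO, PDGF-BB cells given platelet-derived growth factor BB (a mitogen of smooth muscle cells) for 24 h, and PDGF-BB+PTUPB cells given PTUPB at 0.5 µM for 2 h and then the same growth factor for 24 h. PTUPB is a dual inhibitor of cyclooxygenase-2 and soluble epoxide hydrolase. All cells were labelled wild type and were at passages 4 to 8, had been grown in 20% serum, were kept 12 h without serum and were treated in 2% serum. The PDGF-BB dose is 10 ng/mL in the sample labels and 20 ng/mL in the series design. Per the labels, no group received PTUPB without the growth factor. Whether replicate libraries were separate cultures or animals is not stated in the labels, so the p-values reflect the spread between libraries alone, and that spread may be technical.

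Collagens are secreted trimers wound from chains in which glycine recurs at regular steps. Fibrillar collagens (types I, II, III, V, XI, XXIV and XXVII) form tensile fibrils, and some of these types build those of the artery wall. Network collagens form sheets, with type IV in the basement membrane around each smooth muscle cell and type VIII in a hexagonal lattice of the vessel wall. FACIT collagens (types IX, XII, XIV, XVI and others) lie on the surface of fibrils, and type VI forms beaded microfilaments between fibrils and cells. Smooth muscle cells that leave the contractile state for the synthetic state are known for making matrix.

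The libraries held 12729187 to 16911050 counts over all genes. Control replicate 2 and PDGF-BB replicate 3 stood apart from the other 7 on the second principal component (-16.2 and -20.6, against -0.228 to 15.7; 13.7% of the variance). In both, values of longer genes were lower relative to the mean of the other 2 libraries of the group. Spearman correlations, across genes, between this deviation and exonic length were -0.399 and -0.390 (genes are not independent replicates). They were 0.360 in Control replicate 1, 0.362 in PDGF-BB replicate 2 and -0.134 to 0.206 in the remaining libraries. The exonic lengths of the tested collagen genes ran from 3082 to 10599 bases, against a median of 2336 over all tested genes, and the part of this trend in the results below was not tested beyond leaving both libraries out. The smooth muscle label was checked against 7 markers, of which 6 were tested. Mean FPKM in Control was 1299 for Tagln, 659 for Acta2, 65.2 for Cnn1 and 37.8 for Smtn. It was 17.5 for Lmod1, 5.99 for Myh11 and 0.0200 for Des. Abundant adventitial fibroblast markers were at 266 to 671 in Control. With PDGF-BB 3 of the 6 tested smooth muscle markers fell (Acta2, Myh11 and Lmod1) and 0 rose, where 15.8% of all tested genes fell and 17.3% rose. Tagln (mean 1658 FPKM) and Cnn1 (85.6) were above Control in all PDGF-BB libraries but did not pass (edgeR adjusted p = 0.127 and 0.129). The summed FPKM of the 7 markers was 1717 to 2342 in Control, 2152 to 2517 with PDGF-BB and 2182 to 2441 with PDGF-BB+PTUPB. Endothelial markers summed to at most 0.330 FPKM in any library with Cdh5 and Kdr at 0, Schwann cell markers to at most 1.49 with Sox10 at 0, and macrophage markers to at most 4.58 with Ptprc at 0. Chondrogenic and osteogenic markers summed to 12.0 to 17.4 FPKM in Control, 19.2 to 20.2 with PDGF-BB and 18.5 to 19.7 with PDGF-BB+PTUPB, with Matn1 and Bglap at 0. Of their 3 tested members Runx2 rose with PDGF-BB. Adventitial fibroblast markers are given beside Col14a1.

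With PDGF-BB, Col3a1 of type III collagen, Col5a3 of type V and Col6a2 of type VI rose. A gene outside the rule, described as the alpha 3 chain of type VI, rose too. Falls were called for 3 of 4 tested type IV genes of the basement membrane (Col4a1, Col4a2 and Col4a5, not Col4a6) and the 3 tested FACIT genes. Col3a1, the chain of type III collagen, was 2.34-fold higher than in Control, and Col14a1, a FACIT chain of fibril surfaces, was 0.262 times its Control level. With PTUPB before PDGF-BB, Col3a1 and Col5a3 were lower and the same 3 type IV and 3 FACIT genes higher than with PDGF-BB alone, of which Col4a1, Col4a5, Col12a1 and Col16a1 lost the call in 9 to 12 of 18 alternative settings. Col1a1, the most abundant collagen transcript of these cells, did not pass the test in any comparison. Bulk RNA does not tell a change in RNA per cell from a change in how many cells make it.

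Of the 42 genes, 20 reached an FPKM (fragments counted per kilobase of exon, scaled to library size) of at least 1 in at least 3 libraries and were tested, and 22 did not. Col27a1 lay just inside this limit (0.500 to 1.15 FPKM, at least 1 in 4 libraries) and Col23a1 just outside it (0.0700 to 1.15, in 1 library). Genes were called at a Benjamini-Hochberg adjusted p under 0.05 in edgeR's quasi-likelihood test. Against Control, 3 of the 20 rose with PDGF-BB and 6 fell, 45.0% in all, where 33.2% of the 11197 genes tested were called (17.3% higher and 15.8% lower). The median log2 change was -0.19 over the 20 genes and -0.02 over all tested genes. Against PDGF-BB, 6 rose and 4 fell with PDGF-BB+PTUPB, 50% in all, where 18.3% of all tested genes were called (8.28% higher and 10.0% lower), and the medians were 0.04 and 0.01. These comparisons share the PDGF-BB libraries, so their values are not independent. Scaling by library totals alone gave 6 collagen genes that rose and 6 that fell with PDGF-BB (2410 and 1350 of all tested genes, against 1942 and 1772 with TMM), and 4 and 4 for PDGF-BB+PTUPB against PDGF-BB (760 and 1414 of all tested genes, against 927 and 1121). FPKM did not overlap between the groups for 12 of the 20 genes in the comparison of PDGF-BB with Control (44.6% of all tested genes) and for 14 in that of PDGF-BB+PTUPB with PDGF-BB (41.4%).

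**Figure D1:**
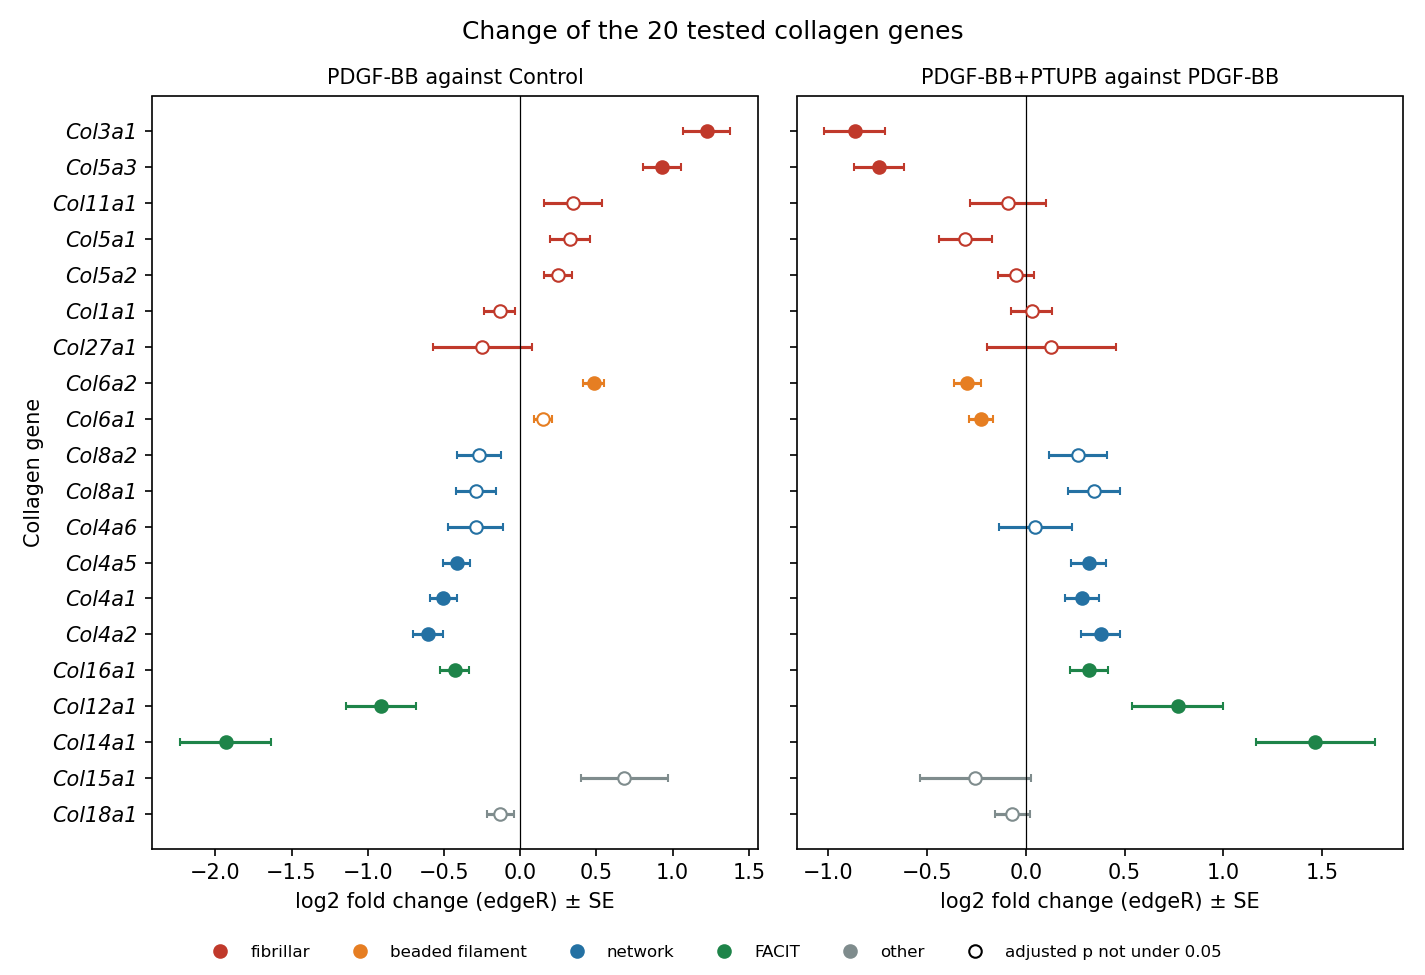
Log2 fold change ± SE (edgeR, x axis) of the 20 tested collagen genes (y axis), grouped and coloured by class, for PDGF-BB against Control (left) and PDGF-BB+PTUPB against PDGF-BB (right); open symbols did not reach an adjusted p under 0.05. The 3 FACIT genes and 3 of the 6 network genes are filled, to the left of 0 in the left panel and to the right of it in the right panel, and Col3a1 and Col5a3 lie on the opposite sides.

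The pool of collagen transcripts was set by a few genes. Col1a1 had the highest mean FPKM of the collagen genes (3027 over the 9 libraries, rank 11 of all genes in the file), followed by Col3a1 (714, rank 89), Col4a1 (555), Col8a1 (389) and Col5a2 (388). FPKM summed over the 42 genes was 6163 ± 446 (SD, n = 3) in Control, 6515 ± 295 with PDGF-BB and 6117 ± 283 with PDGF-BB+PTUPB, and the 3 groups overlapped. The classes within this sum did not all overlap. Fibrillar collagens held 64.9% to 68.9% of the sum in Control, 73.1% to 74.3% with PDGF-BB and 66.4% to 70.6% with PDGF-BB+PTUPB. Network collagens held 22.8% to 26.1%, 17.5% to 18.2% and 21.4% to 24.6% in the same order, and FACIT collagens 2.24% to 3.25%, 1.42% to 1.66% and 2.05% to 2.97%. For these 3 classes the PDGF-BB libraries lay outside both other groups, which overlapped each other. The beaded filament share was 4.45% to 5.09% in Control, 5.80% to 6.37% with PDGF-BB and 5.11% to 5.41% with PDGF-BB+PTUPB, with no overlap between any of the groups. Sums over chosen genes were not tested, and they leave out Col1a2 and Col6a3. Col3a1 alone held 6.23% to 9.05% of the sum in Control, 16.6% to 17.4% with PDGF-BB and 8.25% to 11.1% with PDGF-BB+PTUPB. Col1a1 held 50.7% ± 1.46, 45.9% ± 0.759 and 48.4% ± 0.540 in the same order. The mean fibrillar sum was 4131 FPKM in Control and 4802 with PDGF-BB, and mean Col3a1 was 451 and 1104. The higher fibrillar share thus lay mostly in Col3a1. Shares of 1 sum depend on each other, so the lower Col1a1 share is not a fall of Col1a1 itself.

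**Figure D2:**
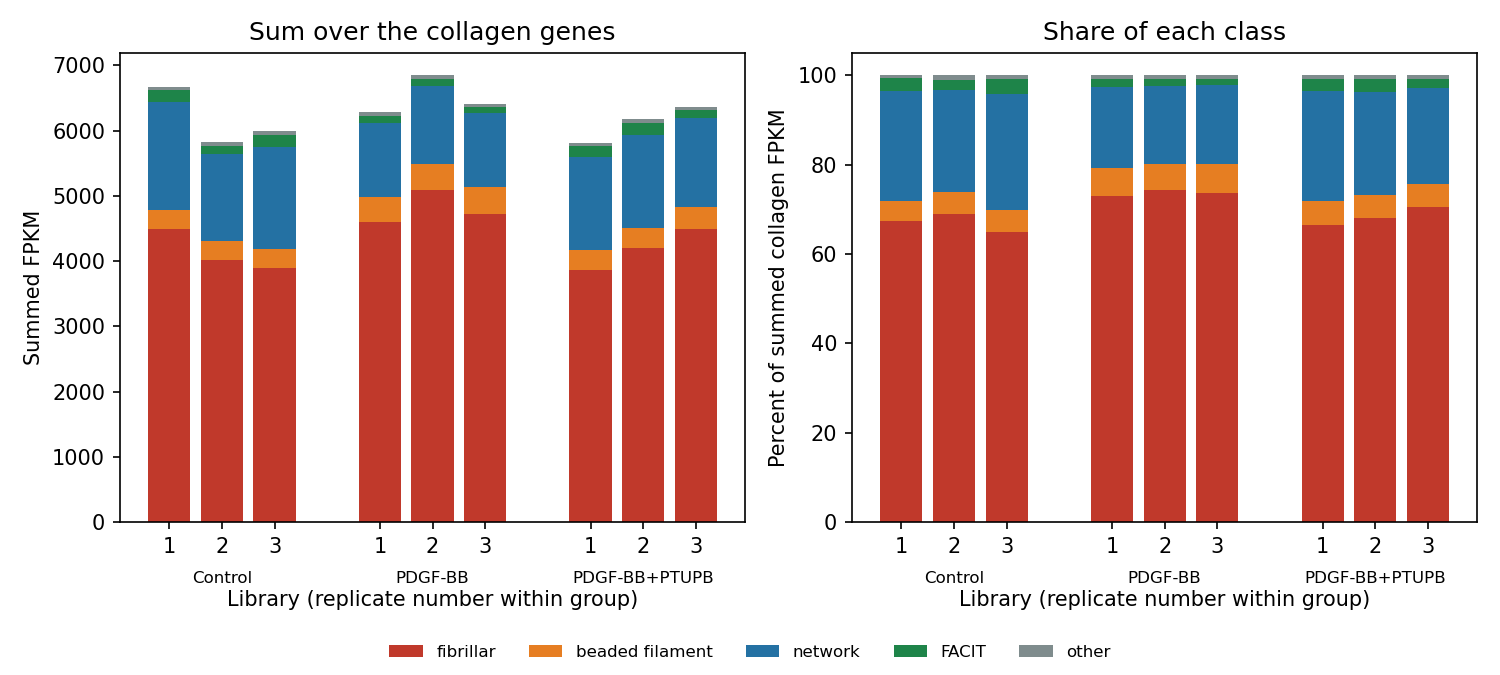
FPKM summed over the collagen genes of each class (left, y axis) and the share of each class in that sum in percent (right, y axis) for each of the 9 libraries (x axis), stacked by class. Total height overlaps between the groups, while the fibrillar share is 73.1% to 74.3% in the 3 PDGF-BB libraries and at most 70.6% in the other 6.

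Among the fibrillar collagens, 2 of 7 tested genes rose with PDGF-BB and 0 fell, with a median log2 change of 0.33, and 2 fell with PDGF-BB+PTUPB against PDGF-BB, with a median of -0.09. The 2 of 7 are 28.6%, below the 33.2% of all tested genes called with PDGF-BB, so the count itself is no result about the class. Col3a1 (ENSRNOG00000003357), whose product forms homotrimers that share fibrils with type I collagen, stood at 452, 527 and 374 FPKM in Control replicates 1 to 3. It stood at 1058, 1193 and 1063 FPKM with PDGF-BB and at 479, 576 and 708 FPKM with PDGF-BB+PTUPB. All PDGF-BB libraries were above the other 6, and Control and PDGF-BB+PTUPB overlapped. The log2 change was 1.22 ± 0.15 (SE, edgeR adjusted p = 2.66e-04) with PDGF-BB and -0.87 ± 0.15 (edgeR adjusted p = 0.00482) with PDGF-BB+PTUPB against PDGF-BB.

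Col5a3 (ENSRNOG00000020525), a minor chain of type V collagen, which controls fibril thickness, followed the same order at a low level. Its FPKM was 1.32, 1.34 and 1.46 in Control, 2.65, 3.20 and 2.41 with PDGF-BB, and 1.54, 1.63 and 1.61 with PDGF-BB+PTUPB. No group overlapped another. The log2 changes were 0.93 ± 0.13 (edgeR adjusted p = 4.03e-04) with PDGF-BB and -0.74 ± 0.12 (0.00390) with PDGF-BB+PTUPB against PDGF-BB.

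The major chains of types I and V moved less. Col1a1 (ENSRNOG00000003897), the main chain of type I collagen, read 3457, 2986 and 2941 FPKM in Control, 2866, 3107 and 2999 with PDGF-BB, and 2814, 2955 and 3117 with PDGF-BB+PTUPB. The 3 groups overlapped, and the log2 change was -0.14 ± 0.10 (edgeR adjusted p = 0.337) with PDGF-BB and 0.03 ± 0.10 (0.874) with PDGF-BB+PTUPB against PDGF-BB. Col5a2 (ENSRNOG00000003736) was at 349, 323 and 349 FPKM in Control, 405, 462 and 409 with PDGF-BB and 358, 416 and 420.5 with PDGF-BB+PTUPB. Its PDGF-BB libraries were all above Control, but the log2 change of 0.25 ± 0.09 did not pass (edgeR adjusted p = 0.0600). It did pass when libraries were scaled by their totals alone (0.0208) or with DESeq2 (0.0350). Col5a1, its partner, had a log2 change of 0.33 ± 0.13 with PDGF-BB (edgeR adjusted p = 0.0816), and Col11a1, a type XI chain that can assemble with type V chains, 0.35 ± 0.19 (0.188). Col27a1 was near the detection limit at 0.920 ± 0.364 FPKM in Control and 0.810 ± 0.183 in PDGF-BB.

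**Figure D3:**
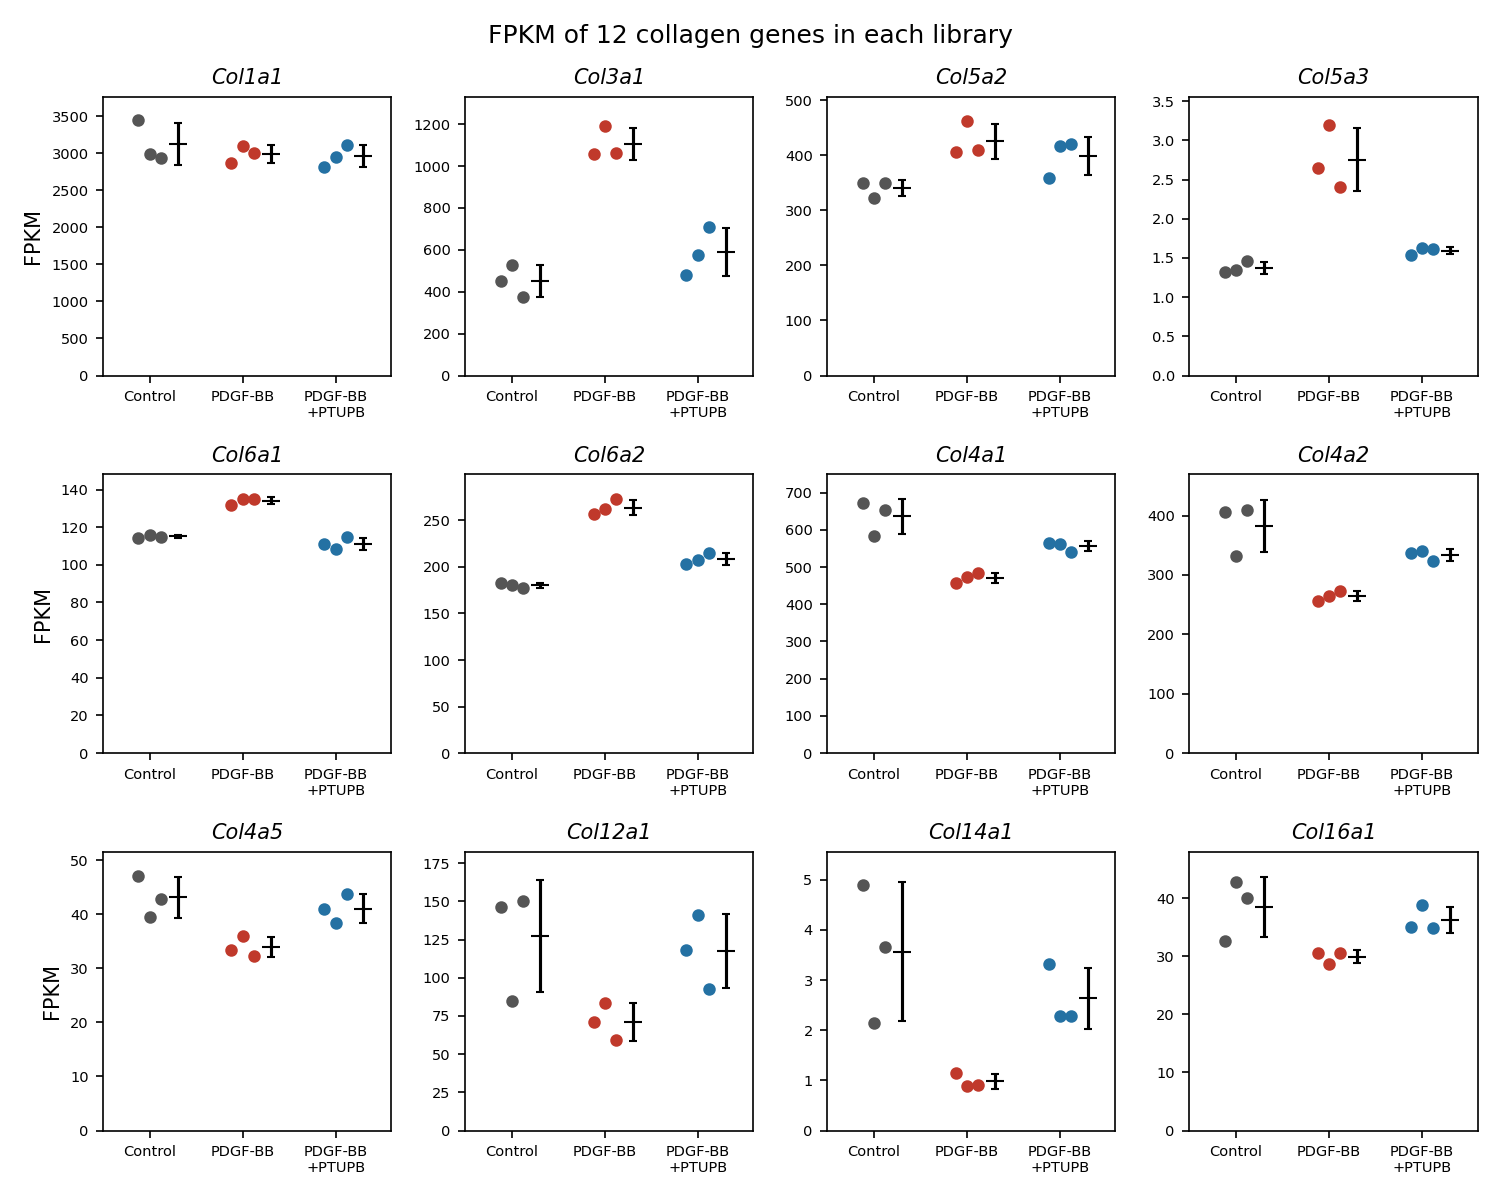
FPKM (y axes, from 0) of 12 collagen genes in each library of the 3 groups (points), with the group mean ± SD (n = 3) beside them in black. Col3a1 and Col5a3 are highest in the 3 PDGF-BB libraries, the type IV genes Col4a1, Col4a2 and Col4a5 and the FACIT genes Col12a1, Col14a1 and Col16a1 are lowest there, and Col1a1 overlaps between all groups.

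Type VI collagen is a heterotrimer of separately encoded chains. Col6a2 (ENSRNOG00000001254) read 183, 181 and 177 FPKM in Control, 257, 262 and 273 with PDGF-BB and 204, 207 and 215 with PDGF-BB+PTUPB, with no overlap between the groups. It rose by 0.48 ± 0.07 on the log2 scale with PDGF-BB (edgeR adjusted p = 4.96e-04) and fell by 0.30 ± 0.07 with PDGF-BB+PTUPB against PDGF-BB (0.0141). Col6a1 (ENSRNOG00000001249), its partner, was at 114, 116 and 115 FPKM in Control, 132, 135 and 135 with PDGF-BB and 111, 108 and 115 with PDGF-BB+PTUPB. The PDGF-BB libraries were above the rest. The log2 change of 0.15 ± 0.06 with PDGF-BB did not pass (edgeR adjusted p = 0.0817; 0.0170 with libraries scaled by totals and 0.0379 with DESeq2), and the change of -0.23 ± 0.06 with PDGF-BB+PTUPB against PDGF-BB did (0.0285). The file also holds a gene without a collagen symbol, AABR07068316.1 (ENSRNOG00000019648), that it describes as the alpha 3 chain of type VI collagen; it was looked at because of that description, outside the rule. Its FPKM was 25.5 ± 3.95 in Control, 53.7 ± 4.17 with PDGF-BB and 36.8 ± 5.60 with PDGF-BB+PTUPB (n = 3 each), without overlap. It rose with PDGF-BB (log2 change 1.01 ± 0.14, edgeR adjusted p = 4.30e-04) and fell with PDGF-BB+PTUPB against PDGF-BB (-0.50 ± 0.14, edgeR adjusted p = 0.0298). The genes Col6a4, Col6a5 and Col6a6 had at most 1 count in all libraries together.

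In the network class 3 of 6 tested genes fell with PDGF-BB and 0 rose (median log2 change -0.36), and 3 rose with PDGF-BB+PTUPB against PDGF-BB and 0 fell (median 0.30). Of all tested genes 15.8% fell in the former and 8.28% rose in the latter comparison. The 3 genes, Col4a1, Col4a2 and Col4a5, all encode type IV collagen. Col4a1 (ENSRNOG00000016281) read 673, 583 and 654 FPKM in Control, 456, 473 and 483 with PDGF-BB and 566, 563 and 540.1 with PDGF-BB+PTUPB. No group overlapped another, with PDGF-BB lowest and Control highest. The log2 changes were -0.51 ± 0.09 (edgeR adjusted p = 0.00176) with PDGF-BB and 0.28 ± 0.09 (0.0476) with PDGF-BB+PTUPB against PDGF-BB. Col4a2 (ENSRNOG00000023972), whose chain joins 2 Col4a1 chains in the common type IV trimer, read 407, 331 and 409 FPKM in Control, 256, 264 and 273 with PDGF-BB and 337, 341 and 323 with PDGF-BB+PTUPB. All PDGF-BB libraries were below the other 6. Its log2 changes were -0.60 ± 0.10 (edgeR adjusted p = 0.00125) and 0.38 ± 0.10 (0.0245).

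Col4a1 and Col4a2 lie head to head. In the RefSeq annotation of the rat build GRCr8, their start sites are separated by 76 bases at chr16:84885521-84885596. This stretch, which lies before the first exon of either gene, is shown because the 2 genes were called in the same direction in both comparisons that involve PDGF-BB alone. It is written in the direction of Col4a1, 5′ to 3′, with the GC box (GGGCGG, here on the other strand) in capitals.
Col4a1-Col4a2: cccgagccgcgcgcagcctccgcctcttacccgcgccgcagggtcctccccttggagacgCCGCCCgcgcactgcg
The stretch has 78.9% G and C and holds 1 GC box, 0 CCAAT motifs and 0 of its reverse complement ATTGG. Col4a3 and Col4a4 are also head to head, with 412 bases between their annotated starts (chr9:91323578-91323989), and so are Col4a5 and Col4a6, with 1414 bases between them (chrX:109905945-109907358).

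The other pairs differed in level. Col4a5 (ENSRNOG00000018951) read 47.1, 39.6 and 42.8 FPKM in Control, 33.5, 36.0 and 32.4 with PDGF-BB and 41.0, 38.5 and 43.8 with PDGF-BB+PTUPB, so that PDGF-BB was below both other groups. The log2 changes were -0.42 ± 0.09 (edgeR adjusted p = 0.00512) and 0.32 ± 0.09 (0.0326). Col4a6, its neighbour, was at 1.64 ± 0.384 FPKM in Control, 1.40 ± 0.0702 with PDGF-BB and 1.41 ± 0.0436 with PDGF-BB+PTUPB and did not pass with PDGF-BB (-0.29 ± 0.18, edgeR adjusted p = 0.244) or with PDGF-BB+PTUPB against PDGF-BB (0.05 ± 0.18, 0.888). Col4a3 and Col4a4 stayed at 0 to 0.0900 and 0.110 to 0.340 FPKM. Of the hexagonal network genes, Col8a1 (ENSRNOG00000039668) read 464, 334 and 400 FPKM in Control, 353, 380.5 and 297 with PDGF-BB and 432, 428 and 409 with PDGF-BB+PTUPB. Control overlapped PDGF-BB, and PDGF-BB+PTUPB lay above PDGF-BB. Its log2 changes of -0.29 ± 0.13 with PDGF-BB (edgeR adjusted p = 0.114) and 0.34 ± 0.13 with PDGF-BB+PTUPB against PDGF-BB (0.0978) did not pass. Col8a2, its partner, changed by -0.27 ± 0.15 (edgeR adjusted p = 0.183) and 0.26 ± 0.15 (0.247). With Control 2 and PDGF-BB 3 both removed, all 6 tested network genes fell with PDGF-BB, including Col8a1 (-0.32, edgeR adjusted p = 0.0135), Col8a2 (-0.50, 4.96e-04) and Col4a6 (-0.45, 0.0483). In that fit 2182 of all tested genes fell, against 1772 with all libraries.

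The 3 tested FACIT genes, of 9 in the file, all fell with PDGF-BB (median log2 change -0.91). All 3 rose with PDGF-BB+PTUPB against PDGF-BB (median 0.77). The shares over all tested genes were 15.8% that fell and 8.28% that rose in these comparisons. Col12a1 (ENSRNOG00000058470), whose product bridges fibrils, read 146, 84.9 and 151 FPKM in Control, 70.9, 83.5 and 59.0 with PDGF-BB and 118, 141 and 92.9 with PDGF-BB+PTUPB. Control replicate 2 and PDGF-BB replicate 3 were the lowest of their groups in this gene, the longest tested collagen gene (10599 exonic bases). The log2 changes were -0.91 ± 0.23 (edgeR adjusted p = 0.0123) and 0.77 ± 0.23 (0.0428). With both removed they were -1.03 (edgeR adjusted p = 8.22e-04) and 0.66 (0.00991), and when Control 3 alone was removed the former missed the threshold (0.0509). Col16a1 (ENSRNOG00000031475), a FACIT chain found near cells, read 32.7, 42.8 and 40.1 FPKM in Control, 30.6, 28.7 and 30.5 with PDGF-BB and 35.0, 38.8 and 34.9 with PDGF-BB+PTUPB. PDGF-BB lay below both other groups. Its log2 changes were -0.43 ± 0.10 (edgeR adjusted p = 0.00658) and 0.32 ± 0.10 (0.0441).

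Col14a1 (ENSRNOG00000026415), which regulates the packing of fibrils, had the largest change of the tested collagen genes. Its FPKM was 4.90, 2.14 and 3.65 in Control, 1.15, 0.890 and 0.900 with PDGF-BB, and 3.33, 2.29 and 2.28 with PDGF-BB+PTUPB. The PDGF-BB libraries were below the other 6, and Control and PDGF-BB+PTUPB overlapped. The log2 changes were -1.93 ± 0.30 (edgeR adjusted p = 9.55e-04) and 1.47 ± 0.30 (0.00928). Col14a1 is also a marker of adventitial fibroblasts, cells that a culture from the aorta could hold. Of 8 such markers 6 were tested. With PDGF-BB 4 fell (Pdgfra, Dcn, Scara5 and Col14a1 itself), where 15.8% of all tested genes fell. With PDGF-BB+PTUPB against PDGF-BB 3 rose (Pdgfra, Scara5 and again Col14a1 itself), where 8.28% of all tested genes rose. The summed FPKM of the 8 markers was 1443 to 2437 in Control, 951 to 1347 with PDGF-BB and 1511 to 1745 with PDGF-BB+PTUPB. Mean FPKM in Control was 671 for Lum, 582 for Dcn, 339 for Scara5 and 266 for Pdgfra. The marker Cd34 had a mean of at most 0.0267 FPKM in any group, Dpt of at most 0.0733, and Pi16 was at 2.92 to 3.16. The part of such cells in the Col14a1 values was not tested.

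Promoters were read for the called genes that RefSeq's table for GRCr8 holds; it matched 33 of the 42 genes and 15 of the 20 tested, without Col1a1, Col3a1, Col6a2, Col12a1 and Col14a1. The 120 bases before the start are shown for 2 genes that fell with PDGF-BB (Col4a5 and Col16a1), 1 that rose (Col5a3) and Col6a1. Col6a1 was called only in PDGF-BB+PTUPB against PDGF-BB, where it fell, which its label below gives as fell with PTUPB. Sequences run 5′ to 3′ on the strand of the gene, with each GC box in capitals.
Col4a5 (fell; chrX:109907239-109907358, plus strand): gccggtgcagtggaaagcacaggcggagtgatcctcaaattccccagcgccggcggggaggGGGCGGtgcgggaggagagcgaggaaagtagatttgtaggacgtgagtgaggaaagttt
Col16a1 (fell; chr5:147672976-147673095, plus strand): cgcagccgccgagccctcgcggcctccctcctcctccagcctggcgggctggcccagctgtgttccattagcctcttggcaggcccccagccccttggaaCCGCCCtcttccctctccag
Col5a3 (rose; chr8:27625949-27626068, minus strand): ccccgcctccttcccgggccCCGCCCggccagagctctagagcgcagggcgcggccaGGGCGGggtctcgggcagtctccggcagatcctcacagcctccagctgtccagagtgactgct
Col6a1 (fell with PTUPB; chr20:11905570-11905689, plus strand): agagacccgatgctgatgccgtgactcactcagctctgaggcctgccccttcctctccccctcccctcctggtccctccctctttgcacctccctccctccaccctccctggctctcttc
GC boxes stood in the window of genes that fell and of the gene that rose. Within 250 bases before the start, searched on both strands, GGGCGG was found at 12 of the 15 promoters of tested collagen genes (80%), against 60.1% of the promoters of all tested genes and 30.5% of all promoters in the table. CCAAT was found at 4 (26.7%, against 35.4% and 34.0%), TATAAA at 0 (against 6.08% and 12.9%) and CAGA at 14 (93.3%, against 90.2% and 93.2%). A match to these letters is a description of the sequence and does not show that a factor binds there.

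Ratios of chains within a library do not depend on how libraries are scaled. The ratio of Col3a1 to Col1a1 in FPKM was 0.131, 0.177 and 0.127 in Control, 0.369, 0.384 and 0.354 with PDGF-BB, and 0.170, 0.195 and 0.227 with PDGF-BB+PTUPB, with Control and PDGF-BB+PTUPB overlapping. That of Col6a2 to Col6a1 was 1.57 ± 0.0292 (SD, n = 3) in Control, 1.97 ± 0.0439 with PDGF-BB and 1.88 ± 0.0373 with PDGF-BB+PTUPB, with no overlap, so PDGF-BB+PTUPB libraries lay nearer to PDGF-BB than to Control. That of Col4a2 to Col4a1 was 0.569 to 0.626, 0.558 to 0.565 and 0.595 to 0.605 in the same order, with PDGF-BB below both other groups. The ratio of Col8a2 to Col8a1 overlapped between all groups (0.110 to 0.156), and that of Col5a2 to Col5a1 was 2.48 to 3.12 in Control, 2.44 to 2.71 with PDGF-BB and 2.95 to 3.20 with PDGF-BB+PTUPB. These ratios were not tested.

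**Figure D4:**
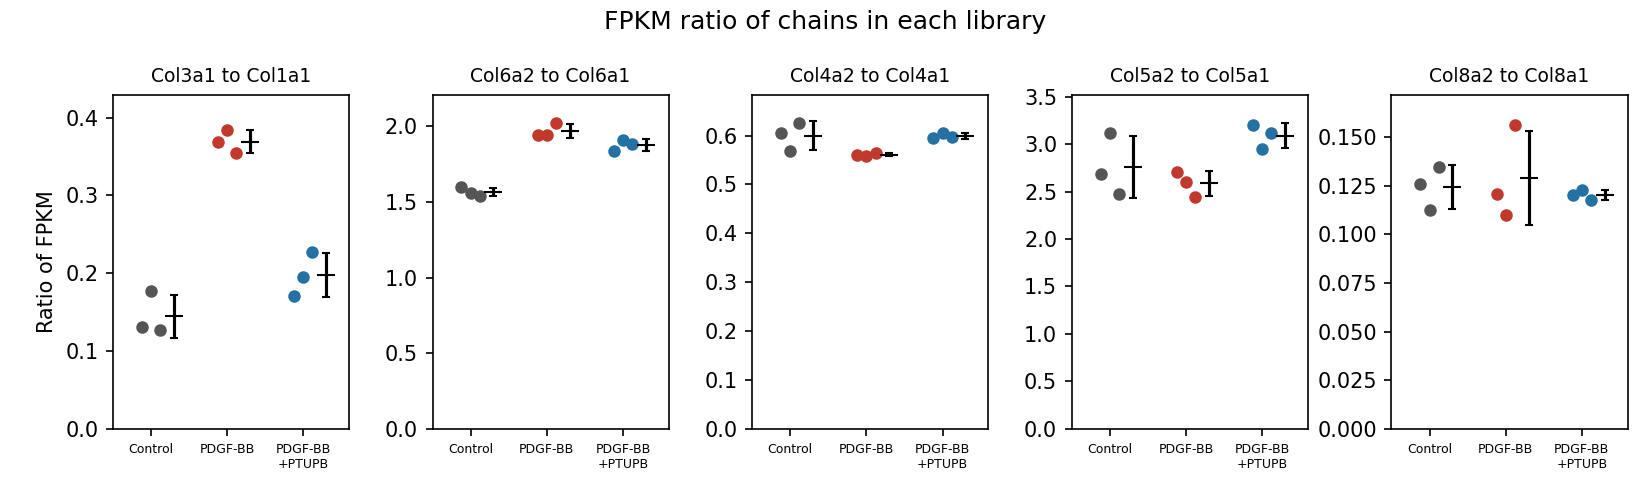
Ratio of FPKM (y axes, from 0) between collagen chains in each library of the 3 groups (points), with the group mean ± SD (n = 3) in black. The ratio of Col3a1 to Col1a1 is 0.354 to 0.384 with PDGF-BB and at most 0.227 in the other libraries, and that of Col8a2 to Col8a1 overlaps between the groups.

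Of the remaining classes, the multiplexin genes Col15a1 and Col18a1, whose products link basement membranes to the matrix around them, were tested and not called. Col15a1 was at 5.25 ± 1.35 FPKM in Control, 8.84 ± 4.06 with PDGF-BB and 7.19 ± 0.423 with PDGF-BB+PTUPB, where PDGF-BB replicate 1 (13.4) was far above the other 2 libraries of its group (5.69 and 7.41). Col18a1, the source of endostatin, was at 46.9 ± 6.40, 44.9 ± 1.12 and 41.5 ± 1.05 FPKM. Of the 22 genes that were not tested, 5 (Col9a1, Col22a1, Col25a1, Col26a1 and Col6a6) had 0 counts in every library, where 3 counts correspond to 0.177 to 0.236 CPM, a limit that covers counting error only. The other 17 had between 1 and 356 counts over all libraries. Col2a1, the fibrillar collagen of cartilage, had 1 count in all, and Col10a1, a network collagen of hypertrophic cartilage, had 10. The minor type XI chain Col11a2 stood out among them, with 185 counts in Control, 61 with PDGF-BB and 110 with PDGF-BB+PTUPB. Its FPKM was 0.740, 0.510 and 0.680 in Control and 0.200, 0.210 and 0.340 with PDGF-BB, and in a fit without the filter it fell with PDGF-BB (log2 change -1.42 ± 0.32, edgeR adjusted p = 0.00528). Col4a3 was also called in that fit, at 20 counts in Control and 2 in PDGF-BB (edgeR adjusted p = 0.0425).

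Genes that modify, fold, cut, cross-link and bind collagen were taken from a list of 54, of which 51 have a row and 43 were tested. With PDGF-BB 8 rose and 10 fell (41.9%, against 33.2% of all tested genes), with a median log2 change of 0.11. With PDGF-BB+PTUPB against PDGF-BB 7 rose and 4 fell (25.6%, against 18.3%), with a median of -0.04. Among 12 hydroxylase genes 4 rose with PDGF-BB and 1 fell, where 17.3% of all tested genes rose. P4ha1, the catalytic subunit of the prolyl 4-hydroxylase that stabilises the triple helix, read 237, 220 and 257 FPKM in Control, 318, 332 and 331 with PDGF-BB and 282, 295 and 283 with PDGF-BB+PTUPB. It rose by 0.39 ± 0.08 on the log2 scale (edgeR adjusted p = 0.00403) with PDGF-BB, and the change of -0.15 ± 0.08 with PDGF-BB+PTUPB against PDGF-BB did not pass (0.229). P4ha2, the alternative subunit, went the other way, from 163 ± 5.36 FPKM in Control to 139 ± 6.41 in PDGF-BB (-0.29 ± 0.07, edgeR adjusted p = 0.00902) and 180 ± 5.63 with PDGF-BB+PTUPB (0.41 ± 0.07 against PDGF-BB, 0.00410). P3h2, a prolyl 3-hydroxylase with a role in type IV collagen, read 0.270, 0.280 and 0.460 FPKM in Control, 1.23, 1.24 and 1.20 with PDGF-BB and 0.450, 1.10 and 0.630 with PDGF-BB+PTUPB. It reached the limit of 1 FPKM in 3 libraries only through the PDGF-BB group, so its call with PDGF-BB (1.78 ± 0.37, edgeR adjusted p = 0.00451), 1 of the 4 above, is given as a description. P3h1, which hydroxylates prolines of fibrillar collagens, passed in both comparisons (0.22 ± 0.07, edgeR adjusted p = 0.0465, and -0.27 ± 0.07, 0.0317), but the calls were lost in 12 and 8 of 18 alternative settings. Plod2, the lysyl hydroxylase of telopeptides, did not pass with PDGF-BB (0.24 ± 0.12, edgeR adjusted p = 0.145).

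The chaperone gene Fkbp10 rose with PDGF-BB from 132 ± 2.82 to 201 ± 17.6 FPKM (0.54 ± 0.08, edgeR adjusted p = 9.67e-04). Serpinh1, the collagen chaperone HSP47, read 868 ± 55.1 FPKM in Control and 1044 ± 95.2 in PDGF-BB; its groups did not overlap, but the log2 change of 0.20 ± 0.09 did not pass (edgeR adjusted p = 0.109). Sec24d, a coat protein of the vesicles that export procollagen, fell with PDGF-BB+PTUPB against PDGF-BB from 66.7 ± 1.91 to 53.7 ± 0.572 FPKM (-0.27 ± 0.07, edgeR adjusted p = 0.0314), a call lost in 7 of 18 settings. Of 5 lysyl oxidases, which start the cross-links, 2 rose with PDGF-BB (Loxl2 and Loxl3), where 17.3% of all tested genes rose. Lox, at 671 ± 87.5 FPKM in Control and 892 ± 185 in PDGF-BB, did not pass (0.34 ± 0.15, edgeR adjusted p = 0.112). Loxl4 fell with PDGF-BB+PTUPB against PDGF-BB (-0.36 ± 0.11, edgeR adjusted p = 0.0442), where 10.0% of all tested genes fell. Loxl2, Loxl3 and Loxl4 are named here after their values were seen. Of 4 tested genes of propeptide processing, 2 fell with PDGF-BB, where 15.8% of all tested genes fell. The same 2 rose with PDGF-BB+PTUPB against PDGF-BB, where 8.28% of all tested genes rose. Pcolce (log2 changes -0.15 and 0.22) and Tll1 (-0.34 and -0.23) were not called in either comparison. Adamts2, which removes the amino-terminal propeptide, read 10.4, 11.6 and 11.5 FPKM in Control, 7.59, 6.81 and 8.07 with PDGF-BB and 9.07, 10.4 and 9.70 with PDGF-BB+PTUPB (log2 changes -0.65 ± 0.09, edgeR adjusted p = 6.55e-04, and 0.42 ± 0.09, 0.0134). Bmp1, which removes the carboxy-terminal propeptide, changed by -0.42 ± 0.07 (edgeR adjusted p = 0.00168) and 0.29 ± 0.07 (0.0223). With PDGF-BB+PTUPB against PDGF-BB the call of Adamts2 was lost in 1 of 18 settings and that of Bmp1 in 5.

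Of 6 tested collagen receptor genes 4 fell with PDGF-BB and 0 rose, where 15.8% of all tested genes fell and 17.3% rose. They were the collagen-binding integrin chains Itga1 and Itga11 and the discoidin domain receptors Ddr1 and Ddr2, of which Itga1 and Ddr1 are named here after their values were seen. Itga11 read 417, 227 and 385 FPKM in Control, 200.3, 205 and 178 with PDGF-BB and 393, 353 and 346 with PDGF-BB+PTUPB, with all PDGF-BB libraries below the rest. Its log2 changes were -0.89 ± 0.19 (edgeR adjusted p = 0.00578) and 0.95 ± 0.19 (0.00895). Ddr2 changed by -0.68 ± 0.11 (edgeR adjusted p = 0.00140) and 0.41 ± 0.11 (0.0299), the latter lost in 5 of 18 settings. Among 8 transcriptional regulators, Smad3, which carries TGF-beta signals, fell with PDGF-BB (-0.56 ± 0.10, edgeR adjusted p = 0.00231) and Ybx1, a factor known to repress type I collagen promoters, rose from 178 ± 14.6 to 337 ± 27.1 FPKM (0.85 ± 0.10, 1.51e-04); with PDGF-BB+PTUPB against PDGF-BB they changed by 0.34 ± 0.10 (0.0419, lost in 10 of 18 settings) and -0.56 ± 0.10 (0.00435, kept in all 18).

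**Figure D5:**
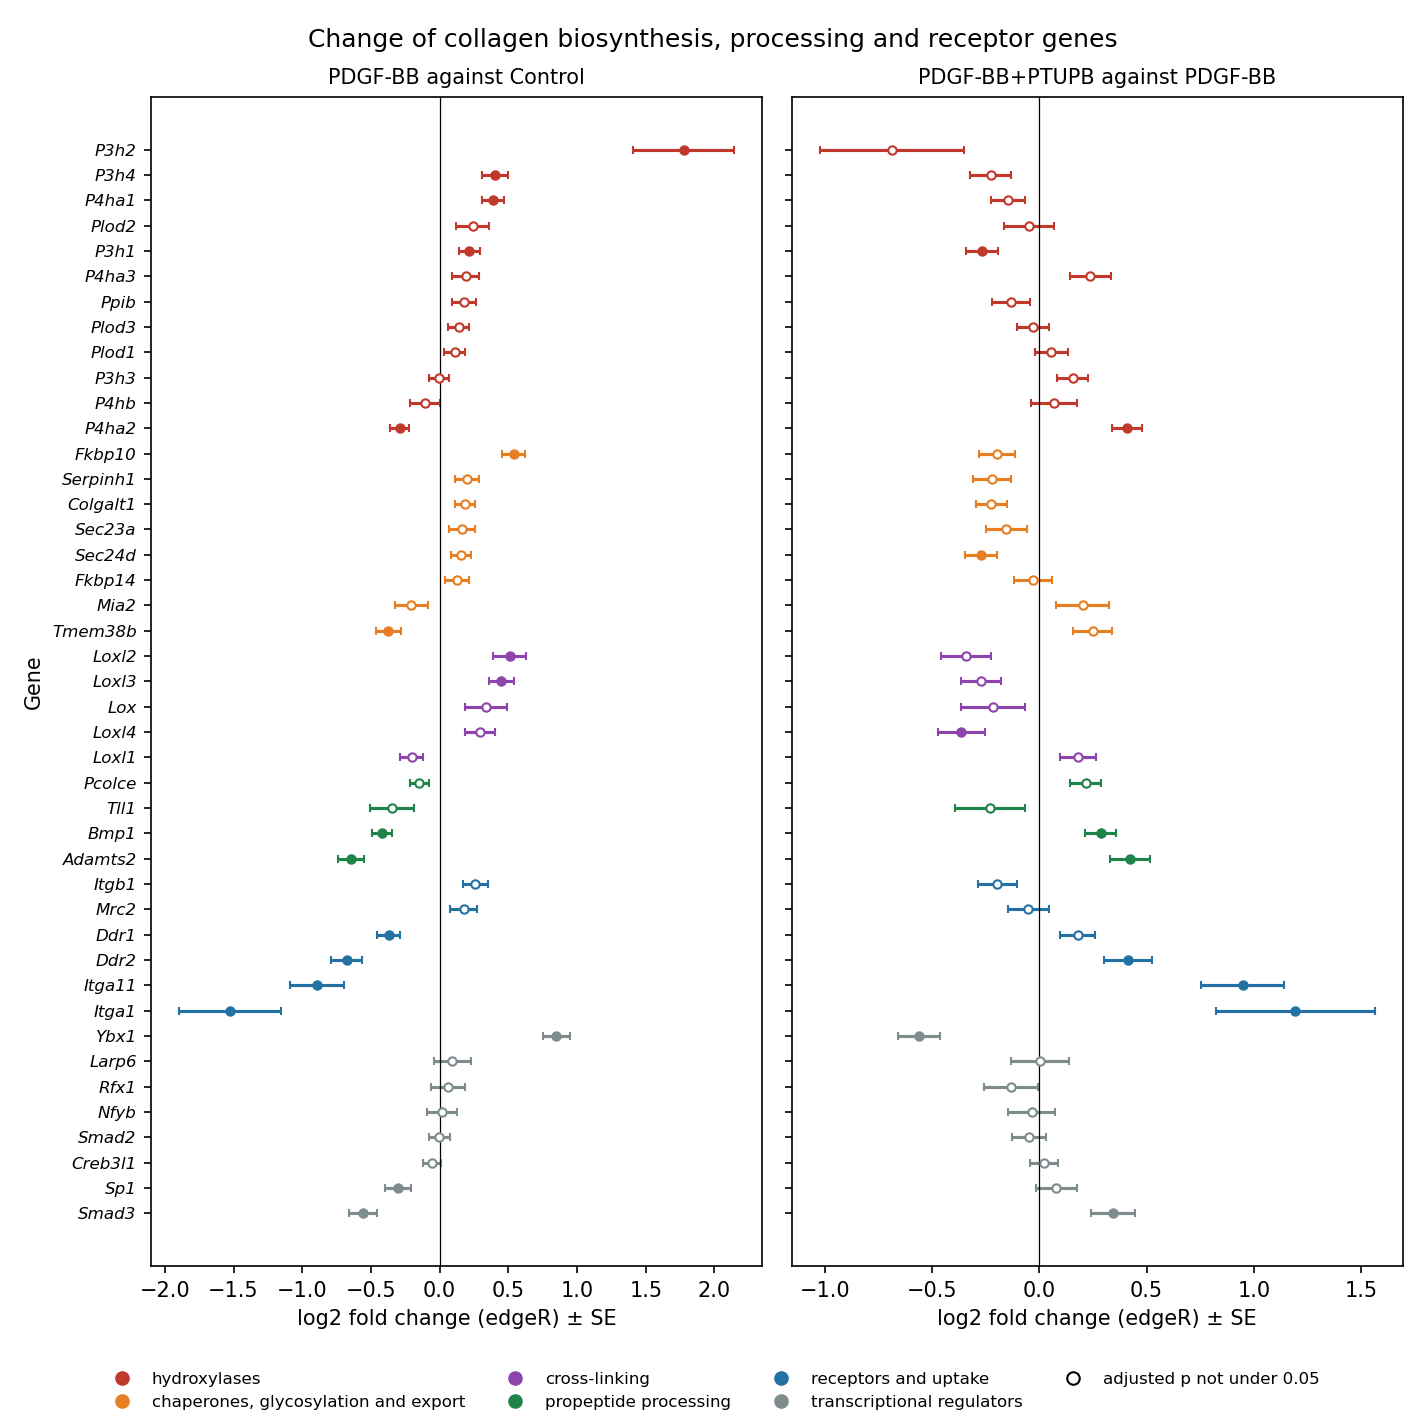
Log2 fold change ± SE (edgeR, x axis) of the 43 tested genes of collagen hydroxylation, folding and export, cross-linking, propeptide processing, binding and transcription (y axis), for PDGF-BB against Control (left) and PDGF-BB+PTUPB against PDGF-BB (right); open symbols did not reach an adjusted p under 0.05. Receptor and propeptide processing genes that are filled lie left of 0 in the left panel and right of it in the right panel.

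Between PDGF-BB+PTUPB and Control, 0 of the 20 tested collagen genes were called by edgeR, where 2.21% of all tested genes were (1.89% higher and 0.313% lower). At an unadjusted p under 0.05 there were 5, and DESeq2 gave 0 and 6. The log2 changes ran from -0.47 for Col14a1 (± 0.28, edgeR adjusted p = 0.515) to 0.43 for Col15a1 (± 0.28, 0.574), with 0.36 ± 0.15 for Col3a1 (0.343) and -0.22 ± 0.09 for Col4a1 (0.303). FPKM of the groups did not overlap for 5 of the 20 (21.1% of all tested genes). These misses do not show that the groups were alike: with Control 2 and PDGF-BB 3 removed, Col4a1 (-0.29, edgeR adjusted p = 0.0162), Col4a2 (-0.33, 0.00757) and Col14a1 (-0.74, 0.0351) were lower than in Control. In that fit 695 of all tested genes were lower than in Control, against 35 with all libraries.

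The calls differed in how far they held. Col3a1, Col5a3 and Col14a1 passed in both comparisons with PDGF-BB under every alternative in which they were tested (18, 17 and 17 settings), and Col4a1, Col4a2, Col4a5, Col16a1 and Col6a2 passed under all 18 for PDGF-BB against Control. For PDGF-BB+PTUPB against PDGF-BB the rises of Col4a1, Col4a5, Col16a1 and Col12a1 lost their call in 11, 10, 12 and 9 of the 18 settings, the rise of Col4a2 in 5 and the falls of Col6a1 and Col6a2 in 6 and 2, with their direction kept. In that comparison 1 collagen gene rose when any of PDGF-BB replicates 1 and 2 and PDGF-BB+PTUPB replicates 1 and 2 was left out, 2 when Control replicate 3 or PDGF-BB+PTUPB replicate 3 was, and 3 when PDGF-BB replicate 3 was, against 6 with all libraries. The number that fell was 2 in place of 4 when PDGF-BB+PTUPB replicate 1 or 2 was left out. Calls over all tested genes were fewer in these fits too. With all libraries 927 genes rose. Without PDGF-BB replicates 1 and 2 there were 626 and 622, and without PDGF-BB+PTUPB replicates 1, 2 and 3 there were 462, 495 and 615. Without Control replicate 3 there were 780, and without PDGF-BB replicate 3 there were 866. Those that fell were 540 and 614 without PDGF-BB+PTUPB replicate 1 or 2, against 1121 with all libraries.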

How the data were processed

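Poly(A) RNA of 9 libraries was primed at random and sequenced paired-end (150 bases), per the labels' protocols. Per the submitters' processing notes, reads were processed with cutadapt 1.9.1, HISAT2 2.0.1 and HTSeq 0.6.1. The notes name the mouse build mm10, whereas all 32623 identifiers are rat Ensembl identifiers, so no coordinates of the file are printed. The strand used for counting is not given in the sources used here. The authors deposited 1 table with an expected count per gene and library (978 genes hold a fractional value) and an FPKM, which recomputation from counts, totals and exonic length matched within 0.006 for 100% of values.

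Counts were rounded and fitted with edgeR 4.0.16 in R 4.3.3 (TMM, quasi-likelihood F test, group only, 9 libraries in 1 fit, 6 residual degrees of freedom), over 11197 genes with FPKM of at least 1 in at least 3 libraries, two-sided. Alternatives were DESeq2 1.42.0, limma 3.58.1 on log2(FPKM + 1) or log2(FPKM + 0.1), scaling by totals, other filters, fits of only the groups compared, the replicate number as a block, and fits without single libraries or without Control replicate 2 and PDGF-BB replicate 3. The fit was tested on simulated data. No libraries were identical. Members, classes and lists were chosen with earlier results of these data known. Values per library are given for collagen genes called in any comparison (group mean FPKM at or above 1 where higher) and for the 5 most abundant. From the biosynthesis list, at most 8 called genes per comparison (by smallest p) are described, with Serpinh1, P4ha1, Plod2, Lox and Bmp1. Of that list Crtap, Mia3 and Pcolce2 were not analysed here. Protein features were planned but not analysed here. Promoters are RefSeq's, build GRCr8.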

Additional observations from a re-analysis of the deposited data

How the results depend on the processing

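Counts of collagen genes were 3 higher and 6 lower for PDGF-BB against Control, 6 and 4 for PDGF-BB+PTUPB against PDGF-BB and 0 and 0 for PDGF-BB+PTUPB against Control. With DESeq2, with library totals without TMM and with limma at either pseudocount, 6 rose with PDGF-BB; the cause was not tested. With PDGF-BB+PTUPB against PDGF-BB, 2 rose with limma at either pseudocount and 2 with a replicate block (a term for the replicate number), the cause again untested. Leaving out 1 library at a time gave 1 to 8 that rose and 2 to 4 that fell in that comparison, and 0 to 1 that fell against Control. Over all tested genes, these fits gave 462 to 1150 that rose and 540 to 1313 that fell against PDGF-BB. With all libraries these were 927 and 1121. With Control 2 and PDGF-BB 3 both removed, 3 collagen genes fell against Control, where 695 of all tested genes did, against 35 with all libraries.

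Among biosynthesis and processing genes (8 rose and 10 fell with PDGF-BB), 14 rose with library totals and 15 with limma at either pseudocount. With PDGF-BB+PTUPB against PDGF-BB (7 rose, 4 fell), 4 rose and 1 fell with the replicate block, 7 fell with library totals and with limma at either pseudocount, 1 fell without a filter, and 13 rose and 8 fell with both of those libraries removed; leaving out 1 library gave 2 to 8 that rose and 1 to 6 that fell. Of these, 4 rose without PDGF-BB replicate 1 or 2 or PDGF-BB+PTUPB replicate 3, 3 without PDGF-BB+PTUPB replicate 1 and 2 without PDGF-BB+PTUPB replicate 2, and 1 fell without PDGF-BB replicate 1 or any PDGF-BB+PTUPB replicate and 2 without Control replicate 3. Against Control (0 and 0), 2 rose with DESeq2, library totals and limma at either pseudocount, and 1 rose without a filter. Without those 2 libraries 3 rose and 5 fell against Control. Leaving out 1 library gave 0 to 2 that rose and 0 to 1 that fell. Over all tested genes, leaving out both libraries gave 1377 that rose and 1441 that fell against PDGF-BB, and 650 and 695 against Control.

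Same-numbered libraries of different groups had correlations of -0.255 to 0.172 between their deviations from the group means. Control replicate 2 and PDGF-BB replicate 3, which carry different numbers, had 0.251. The trend with gene length enters these deviations too, so they cannot decide whether the numbers pair the samples. The labels do not state it. Over 84 results for single genes and 1503 values under alternatives, 1362 stayed on the same side of the threshold, 104 lost the call, 37 gained it and 0 called values changed sign. Scaling by library totals moved the median log2 change of all genes by 0.07 for PDGF-BB against Control and gave 2410 higher and 1350 lower genes against 1942 and 1772. Fits that left a group with 2 libraries rest on fewer samples.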
